A study of Mus musculus with 2 samples.

Results

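The plasminogen activator system and the serpins made by stromal cells were examined through *Plau*, *Plat*, *Plaur*, *Serpine2*, *Serpinf1*, *Serping1* and *Serpinh1*, 7 genes chosen by name. Every probe set annotated to exactly 1 of them was taken, which gave 10 probe sets for 6 genes, out of 45101 probe sets on the array and 18194 genes with a probe set of their own. No probe set was annotated to *Serpine2*, the gene of protease nexin-1, in the annotation used, so *Serpine2* was not analysed here. RNA came from the vagina of female C57/Bl6 mice aged 6 months, either WT or *Fbln5-/-* (without fibulin-5, an elastic fiber protein), with 1 Affymetrix mouse expression array for each genotype. All animals had been ovariectomized and given estradiol at 50 µg/kg/d for 3 d, so both groups share the loss of the ovaries and the hormone, and no untreated or ovary-intact array is included. The sample labels place ovariectomy at 11 d, whereas the methods place estradiol 2 weeks after the operation. The methods name 2 animals in each group, without a statement on whether their RNA was pooled. There are thus no replicates, and neither a p-value nor an error between animals can be given.

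Plasminogen activators are serine proteases that cut plasminogen into plasmin, which dissolves fibrin and degrades extracellular matrix. Urokinase (*Plau*) works at cell surfaces, bound to its receptor (*Plaur*), and tissue plasminogen activator (*Plat*) works mainly on fibrin in and around vessels. Serpins are a family of protease inhibitors that trap their target in a covalent complex, but some members have lost this activity. C1 inhibitor (*Serping1*) blocks the proteases of the first complement component and of the contact system. Pigment epithelium-derived factor (*Serpinf1*) is a secreted serpin that inhibits vessel growth and does not inhibit proteases, and HSP47 (*Serpinh1*) is a collagen chaperone of the endoplasmic reticulum. The study asked about proteases and their inhibitors in the vaginal wall of *Fbln5-/-* mice, and the arrays give the RNA level of this system in each genotype.

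Values are MAS5 signal intensities scaled to a common median, in arbitrary units. A log2 ratio is that of *Fbln5-/-* over WT, so a value of 1 stands for a doubling in *Fbln5-/-*. A signal under 100 was taken as too low to measure. The methods used the same limit only to leave out probe sets under it in both genotypes, and its use on a single array was chosen here. Where 1 array was under 100 a fold is a bound against 100, and a gene under 100 on both arrays has no fold. Each gene was represented by its brightest probe set. Of the 10 probe sets, 8 had at least 100 on at least 1 array and 7 had at least 100 on both. The other 2, the second probe sets of *Plau* and *Plat*, were under 100 on both arrays.

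Among the 6 genes measured, *Plat* was higher by 2-fold or more in *Fbln5-/-* and *Plau* and *Plaur* were lower by as much. *Serping1*, *Serpinf1* and *Serpinh1* were within 2-fold at their brightest probe set, but the second *Serpinf1* probe set was 6.04-fold lower. With signals under 100 set to 100 the counts were 1 higher (*Plat*) and 1 lower (*Plaur*). Over all 11934 genes measured, 7.21% were at least 2-fold higher and 4.77% at least 2-fold lower (5.8% and 3.95% with signals under 100 set to 100). Scaling on probe sets that passed the limit on both arrays moved the median log2 ratio of all genes by −0.11, from 0.16 to 0.05, and turned the split from 861 higher and 569 lower to 679 and 698. The median log2 ratio of the 6 genes was 0.06. Averaged over the probe sets of each gene that passed the limit of 100 on at least 1 array, it was −0.74 (0.09 for all genes). Without the probe sets whose name ends in the suffix _x_at, _s_at or _a_at it was 0.59, over the 4 members left. *Plat* and *Plaur* thus pointed in different directions. *Plau* passed the limit only through the WT array and could only be lower.

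**Figure D1:**
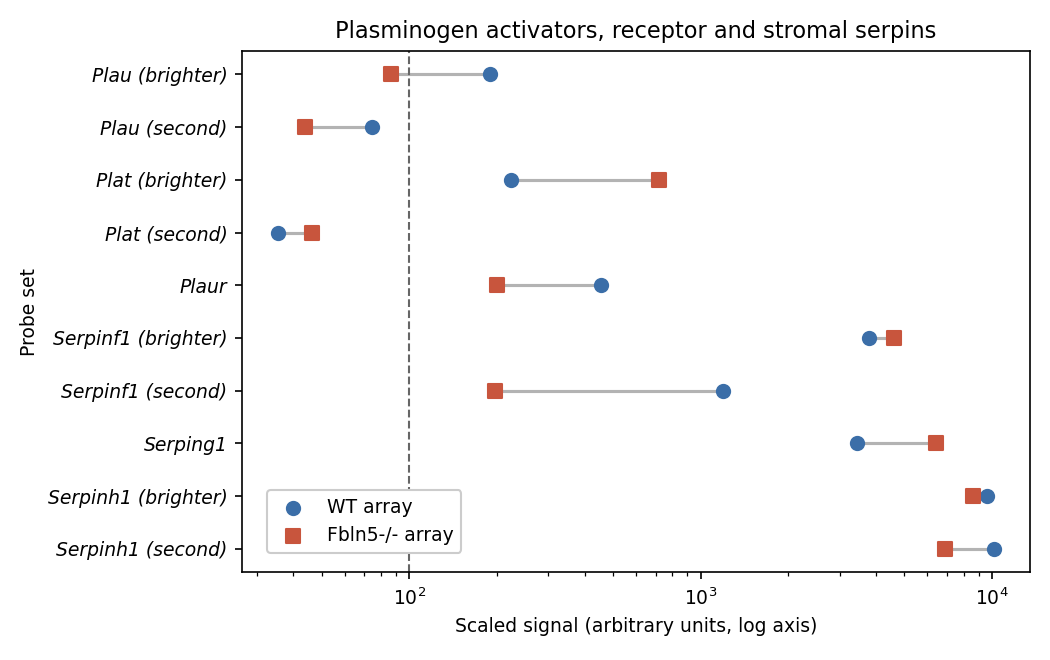
Scaled signal (log axis, arbitrary units) of the 10 probe sets on the WT array (blue circles) and the *Fbln5-/-* array (red squares), 1 array each, with a grey line joining the pair and a dashed line at 100. *Plat* lies to the right on the *Fbln5-/-* array (717.7 against 222.6), *Plau*, *Plaur* and the second probe set of *Serpinf1* lie to the left, and the brighter probe sets of *Serpinf1* and *Serpinh1* nearly meet.

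The 250 bases before the transcription start, from RefSeq promoters of the GRCm38.p6 build, were available for *Plaur*, *Serpinf1* and *Serpinh1* among the measured members, and are shown because they differ in the common promoter elements that they hold. Each runs 5′ to 3′ on the strand of the gene, and capitals mark the matches to any of 6 motifs searched on both strands. The stretches lie at chr7:24462233-24462482 (plus strand) for *Plaur*, chr11:75422624-75422873 (minus strand) for *Serpinf1* and chr7:99353240-99353489 (minus strand) for *Serpinh1*.
Plaur: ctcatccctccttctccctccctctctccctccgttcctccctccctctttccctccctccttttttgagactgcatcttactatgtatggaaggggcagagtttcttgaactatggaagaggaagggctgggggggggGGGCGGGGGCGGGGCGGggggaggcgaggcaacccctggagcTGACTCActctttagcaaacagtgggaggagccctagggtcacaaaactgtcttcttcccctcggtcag
Serpinf1: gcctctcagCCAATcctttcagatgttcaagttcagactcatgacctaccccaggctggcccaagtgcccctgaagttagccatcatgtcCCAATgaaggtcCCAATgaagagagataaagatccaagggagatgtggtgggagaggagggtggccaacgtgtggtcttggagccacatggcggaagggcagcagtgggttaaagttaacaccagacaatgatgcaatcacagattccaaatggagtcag
Serpinh1: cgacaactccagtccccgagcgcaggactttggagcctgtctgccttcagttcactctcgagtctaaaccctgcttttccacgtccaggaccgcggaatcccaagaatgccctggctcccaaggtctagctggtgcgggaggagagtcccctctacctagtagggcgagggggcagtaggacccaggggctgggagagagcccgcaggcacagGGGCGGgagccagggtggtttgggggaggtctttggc
The *Plaur* stretch held an AP-1 site (TGANTCA) that begins 69 bases before the start and 3 GC boxes (GGGCGG), of which some overlap. *Serpinh1* held 1 GC box and *Serpinf1* held 3 CCAAT boxes (CCAAT) and no GC box. Of 32851 promoter stretches of the same length, 6.75% held the AP-1 motif, 32.7% the GC box and 33.8% the CCAAT box. None of the 3 stretches held the heat shock element core (GAANNTTC, in 6.69% of all), the TATA box (TATAAA, 12.4%) or the full palindromic estrogen response element (0.0639%). These are matches of letters and no binding was measured.

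The *Plat* signal was 222.6 in WT and 717.7 in *Fbln5-/-* at the probe set that was bright enough to read. Both were above 100, and the *Fbln5-/-* array was the higher of the pair. The log2 ratio was 1.69, a 3.22-fold difference and the widest upward difference among the members. Of the 21508 probe sets past the limit of 100, 6.49% were at least 2-fold higher, and 2.02% had a log2 ratio at least as high as that of *Plat*. Dim probe sets vary more, so the ratio was also placed among probe sets with a mean signal under 500, where 8.46% were at least 2-fold higher and 2.66% reached that of *Plat*. The second *Plat* probe set had 35.4 and 46.3, under the limit on both arrays, so the difference rests on a single probe set.

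*Plat* is made by endothelium among other cells, and endothelial markers were read beside it. Of 10 endothelial markers, 10 were within 2-fold and the median log2 ratio was 0.19, with a summed signal of 4500.5 for WT and 5119 for *Fbln5-/-*. Their log2 ratios ran both ways, with *Vwf*, von Willebrand factor, just under 2-fold higher (387 and 772.5), *Tek*, an angiopoietin receptor, at 0.74, *Cdh5*, the cadherin of endothelial junctions, at 0.62 and *Pecam1*, an adhesion molecule, at −0.87. The part of endothelial content in the *Plat* difference was not tested. In whole tissue, fewer cells of a type and less RNA per cell cannot be told apart.

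*Plau*, urokinase, had 189.4 in WT and 86.8 in *Fbln5-/-* at its brighter probe set. The *Fbln5-/-* signal lies under the limit, so the decrease is at least 1.89-fold (2.18-fold, log2 ratio −1.13, as measured). The probe set passed the limit only through the WT array, so that it could only be lower in *Fbln5-/-*. The second probe set had 74.5 and 43.7, in the same order but under 100 on both arrays. *Plau* therefore sat close to the limit of what the arrays can measure in this tissue.

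*Plaur*, the urokinase receptor, had 455.6 in WT and 199.9 in *Fbln5-/-* at its only probe set. Both signals were above 100, and the *Fbln5-/-* array was 2.28-fold lower (log2 ratio −1.19). At least 2-fold lower signals were found at 8.52% of all probe sets past the limit and at 11.8% of those with a mean under 500, and 9.6% of that band were at least as low as *Plaur*. A decrease of this size was thus not rare among probe sets of this brightness.

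The receptor is carried by macrophages and neutrophils as well as by epithelium, and the markers of both blood cell types were read beside it. Of 10 macrophage markers, 5 had a log2 ratio above 0 (7592 of all 11934 genes), with a median of 0.22 against 0.16 for all genes. Their summed signal was 10266.6 for WT and 13016 for *Fbln5-/-*. Of the 10, 3 were higher by 2-fold or more and none was lower by as much (7.21% and 4.77% of all genes). The higher ones were *Mrc1*, the mannose receptor (log2 ratio 1.42), *Cd163*, a hemoglobin scavenger receptor (1.33), and *Cd14*, a receptor for bacterial lipopolysaccharide (1.19), whereas *Fcgr1*, an immunoglobulin receptor, was at −0.84. Of 6 neutrophil markers measured, 2 were higher (*S100a8* and *S100a9*, log2 ratios 1.87 and 1.54) and 2 were lower as measured (none with the floor of 100). The 2 lower ones passed the limit only through the WT array. *Ltf*, lactoferrin, was at 0.07 and *Csf3r*, the receptor of granulocyte colony-stimulating factor, at 0.38. The sum over the 9 neutrophil markers with a probe set was 16552 for WT and 21138 for *Fbln5-/-*, of which *Ltf* gave 14452 and 15164, and *Mpo*, *Elane* and *Cxcr2* were under 100 on both arrays. The part of macrophages and neutrophils in the *Plaur* signal was not tested. Nor was it tested which cells of the whole vagina gave the *S100a8*, *S100a9* and *Ltf* signals. *Itgam*, the integrin chain that pairs with the urokinase receptor on myeloid cells, had 433.8 and 76.4, at least 4.34-fold lower, and passed the limit only through the WT array.

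**Figure D2:**
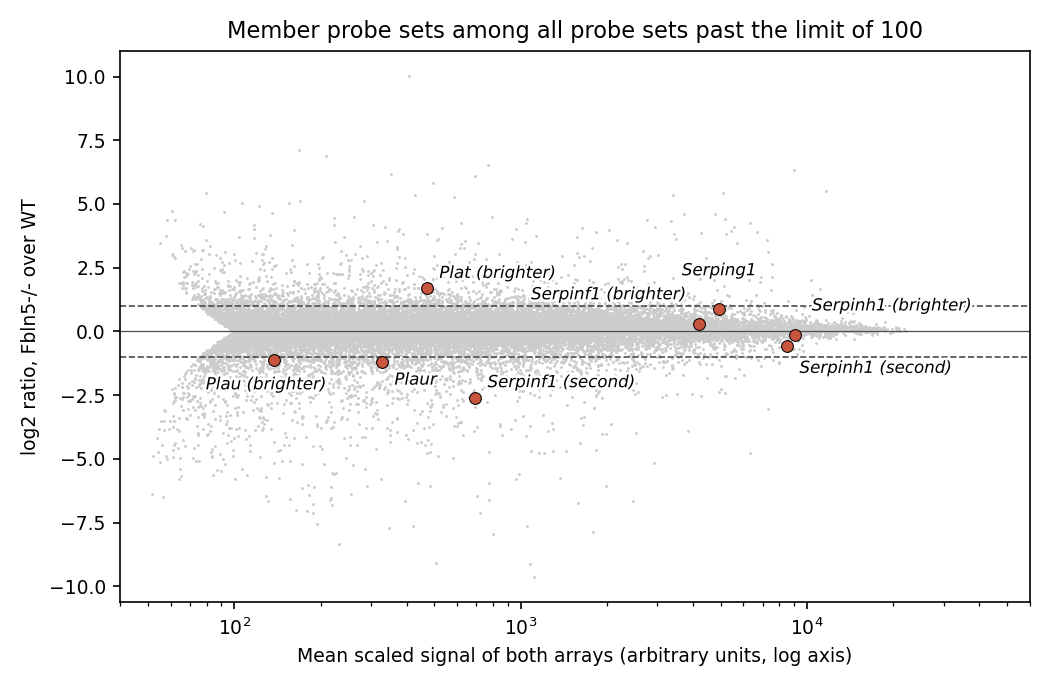
Log2 ratio (*Fbln5-/-* over WT, 1 array each) against the mean scaled signal of both arrays (log axis, arbitrary units) for the 21508 probe sets past the limit of 100 (grey), with the 8 member probe sets in red and dashed lines at a 2-fold difference. *Plat* (1.69) lies above the upper line, *Plau* (−1.13), *Plaur* (−1.19) and the second *Serpinf1* probe set (−2.59) lie below the lower line, and the grey cloud narrows toward bright probe sets.

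*Serping1*, C1 inhibitor, had 3454 in WT and 6429 in *Fbln5-/-* at its only probe set. The difference was 1.86-fold (log2 ratio 0.90), short of the 2-fold limit used for counting. The probe set was bright on both arrays. Among probe sets with a mean of at least 2000, 3.69% were at least 2-fold higher, and 4.85% had a log2 ratio at least as high as that of *Serping1*.

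The proteases and partners of the classical complement pathway, which C1 inhibitor controls, were read beside it. Of 16 genes in the list 11 had a probe set and 7 were measured. Of these, 0 were at least 2-fold higher and 1 was lower (7.21% and 4.77% of all genes). Of the 7, 5 had a log2 ratio above 0, as had 7592 of all 11934 genes measured. The median was 0.52 against 0.16 for all genes. *C1s1* and *C1ra*, the proteases that C1 inhibitor blocks directly, had 1287 and 2432 (log2 ratio 0.92) and 648 and 926.5 (0.52). *C2*, the substrate of C1s, had a log2 ratio of 0.91 at its brightest probe set, and was just past 2-fold at its dimmest (123.8 and 248.4). *Masp1*, a protease of the lectin pathway, was at 0.60. The lower gene was *C1qa*, a chain of the C1q recognition complex, with 1847 and 184.3 at its only probe set (log2 ratio −3.33), whereas *C1qb* and *C1qc*, the other chains of the same complex, had log2 ratios of 0.14 and −0.33. *Masp2*, *F11*, *F12* and *Klkb1*, known mainly from liver, were under 100 on both arrays.

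*Serpinf1*, pigment epithelium-derived factor, gave opposite readings at its probe sets. The brighter probe set had 3788 in WT and 4601 in *Fbln5-/-*, a log2 ratio of 0.28. The second had 1189 and 196.8, a 6.04-fold decrease (log2 ratio −2.59). All 4 signals were above 100, so neither reading is a bound. Among probe sets with a mean of 500 to 2000, 5.14% were at least 2-fold higher, 6.98% were at least 2-fold lower and 0.991% had a log2 ratio as low as that of the second probe set. The gap between the log2 ratios was 2.88, and 33 of the 4114 genes with several probe sets that reached 100 on both arrays (0.802%) had a gap at least as wide. Among the 2699 genes with exactly 2 such probe sets, it was 14 (0.519%). In the 33 genes, *Serpinf1* included, the lowest ratio was at the probe set with the lower WT signal in 22. The same share over all 4114 genes was not computed, so this count has no background to be read against. Which *Serpinf1* transcripts each probe set reads was not analysed here.

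*Serpinh1*, HSP47, was among the bright genes of the array and was slightly lower at both probe sets. The brighter probe set by the mean of both arrays had 9602 for WT and 8604 for *Fbln5-/-* (log2 ratio −0.16), and the other had 10157.5 and 6873 (log2 ratio −0.56). Among probe sets with a mean of at least 2000, 2.77% were at least 2-fold lower, and neither *Serpinh1* probe set was. The order of the arrays was the same at both, and the gap of 0.41 was below the median gap of 0.47 over genes with several probe sets. The log2 ratios of probe sets of 1 gene had a pooled SD of 0.52. This SD is a spread within genes and not an error between animals, so it does not show whether a reading differs from 0. Of probe sets with a mean of at least 2000, 6.93% were at least as low as the second *Serpinh1* reading.

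**Figure D3:**
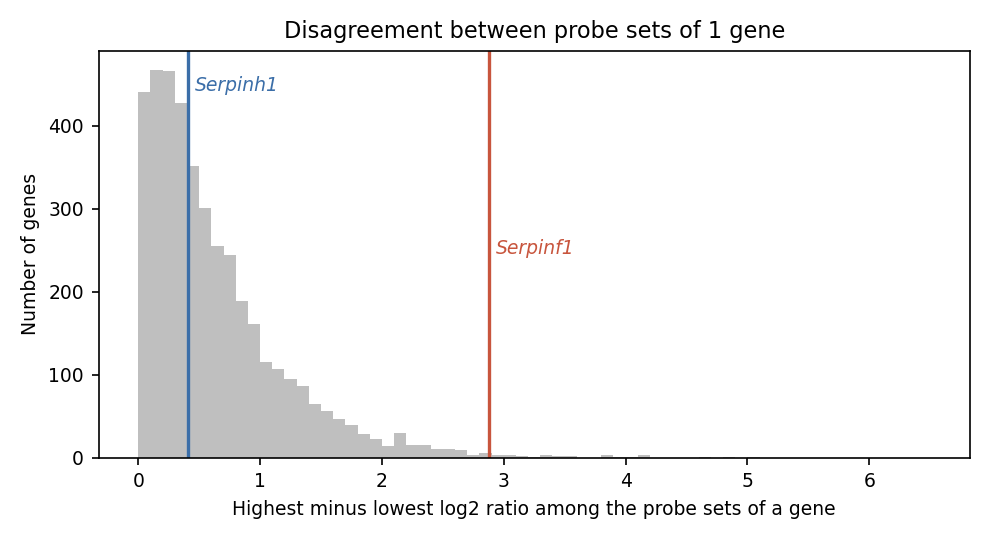
Number of genes (vertical axis) by the gap between the highest and the lowest log2 ratio among their probe sets (horizontal axis, bins of 0.1), for the 4114 genes with several probe sets that reached 100 on both arrays. *Serpinh1* (blue line, 0.41) lies within the main body and *Serpinf1* (red line, 2.88) in the thin right tail.

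The readings at the lower probe sets stand beside controls for RNA length. For *Gapdh*, a glycolytic enzyme, the log2 ratios of 3′, middle and 5′ probe sets were 0.05, −1.16 and −4.44. For *Actb*, a cytoskeletal actin, they were −0.18, −1.22 and −1.87. Signal was thus lower toward the 5′ ends on the *Fbln5-/-* array. The positions of the member probe sets along the mRNA were not determined here, and the part of RNA length in the readings of *Plau*, *Plaur*, *Serpinf1* and *Serpinh1* was not tested. Nor was it tested for the lower genes of the other lists, such as *C1qa*, *Itgam*, *Lrp1*, *Tgfb1* and *Plod1*. *Fbln5* itself had 410.4 in WT and 30.4 in *Fbln5-/-*, at least 4.10-fold lower, and where its probe set lies relative to the deletion was not analysed here.

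The remaining genes of the plasminogen system, a list of 19, held 18 with a probe set and 12 that were measured, with 1 at least 2-fold higher, 2 lower and a median log2 ratio of 0.06. Of the other 6, *Plg*, which encodes plasminogen itself, had 24.7 and 5.24, and *Serpinf2*, the plasmin inhibitor α2-antiplasmin, had 71.5 and 28.3. *Serpina5*, *Serpini1*, *Klkb1* and *F12* were likewise under 100 on both arrays, and plasminogen RNA was thus too low to measure here. The higher gene was *A2m*, a broad protease inhibitor that also traps plasmin, with 239.3 and 569.8 (2.38-fold). The lower genes were *Itgam*, given above, which could only be lower, and *Lrp1*, the endocytic receptor that clears activators bound to their inhibitors, with 2321 and 1134 (2.05-fold, log2 ratio −1.03). *Itgb3*, the β chain of the vitronectin receptor, had a log2 ratio of −0.84. Of 6 listed serpins of clades C to I that are not members, *Serpinf2* and *Serpini1* among them, 5 had a probe set and 0 were measured, all 5 being under 100 on both arrays.

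Several of these genes hold plasminogen or urokinase at surfaces. *Anxa2* and *S100a10*, which form a plasminogen receptor, had log2 ratios of 0.03 and −0.13 at signals of 17167 and 17519, and of 8047 and 7339.6, on the WT and *Fbln5-/-* arrays. A second *Anxa2* probe set had 197.1 and 34.2, the latter under the limit. *Plgrkt*, another plasminogen receptor, was at 0.21, and *Vtn*, vitronectin, a ligand of the urokinase receptor, at 0.34. *Serpinb2*, the inhibitor PAI-2 of squamous epithelium, had 4529.7 and 3965 (−0.19). Among the clearance receptors, *Mrc2*, which binds the urokinase receptor and takes up collagen, was at 0.26, and *Vldlr* was at 0.09 at its brightest of 5 measured probe sets, the others running from −0.46 to 1.02. *Igf2r*, which binds plasminogen and the urokinase receptor, was at 0.47 at its brighter probe set and at −2.41 at the other, a split like that of *Serpinf1*.

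Of 20 listed substrates of plasmin and the activators, 19 had a probe set and 13 were measured. Of the 13, 3 were at least 2-fold higher and 1 was lower (7.21% and 4.77% of all genes measured). Of these 13, *Pdgfd*, *Mmp3* and *Mmp9* passed the limit only through the *Fbln5-/-* array and could only be higher, and *Pdgfd* and *Mmp3* make up 2 of the 3 higher genes. The median log2 ratio was 0.67, against 0.16 for all genes, or 0.59 against 0.15 with signals under 100 set to 100. *Pdgfc*, a growth factor that tissue plasminogen activator cleaves into its active form, had 977.4 and 2659 (log2 ratio 1.44), and 0.66 at its other probe set. *Nid1*, a basement membrane protein, was at 0.90 at its brightest probe set with 111.5 and 18.1 at another, and *Fn1*, fibronectin, was at 0.75. The lower gene was *Tgfb1*, a growth factor that plasmin can release from its latent form, with 2092 and 560.0 (3.74-fold) at the only probe set past the limit.

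HSP47 serves collagen, and the other collagen chaperones and modifying enzymes were read beside it. Of 23 listed, 21 had a probe set and all 21 were measured. Of these, 1 was at least 2-fold higher and 1 lower (7.21% and 4.77% of all genes), and 19 were within 2-fold. The median log2 ratio was −0.13, against 0.16 for all genes. The higher gene was *Pcolce*, an enhancer of procollagen processing, with log2 ratios of 1.28 and 0.84 at its probe sets. The lower gene was *Plod1*, a lysyl hydroxylase (−1.15), and the prolyl hydroxylases *P3h2* and *P4ha3* were at 0.71 and 0.56. *P4ha1*, another prolyl hydroxylase subunit, was at −0.53 at its brightest probe set, with 234.5 and 16.1 at another. Further probe sets of other genes counted as within 2-fold were also at least 2-fold lower, as were 8.52% of all probe sets past the limit. They read *Bmp1* at 304.7 for WT and 25.6 for *Fbln5-/-*, *Colgalt1* at −1.29, *P3h1* at −1.18 and *Plod2* at −1.03. None of the further probe sets past the limit was at least 2-fold higher, and those of *Ppib*, *Fkbp9*, *Sparc*, *Mia3* and *Pcolce* were within 2-fold. Of 7 fibrillar collagen chains measured, 1 was at least 2-fold higher as measured (*Col11a1*, which passed the limit only through the *Fbln5-/-* array; none with the floor of 100), and the median was 0.12. *Col1a1*, *Col3a1*, *Col5a1* and *Col5a2* had log2 ratios of 0.11, 0.26, 0.12 and 0.81 by the rule of the brightest probe set. Other probe sets read *Col1a1* at 0.21, *Col3a1* at 1.24, *Col5a1* at 0.56 and −0.60, and *Col5a2* at 1.91.

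**Figure D4:**
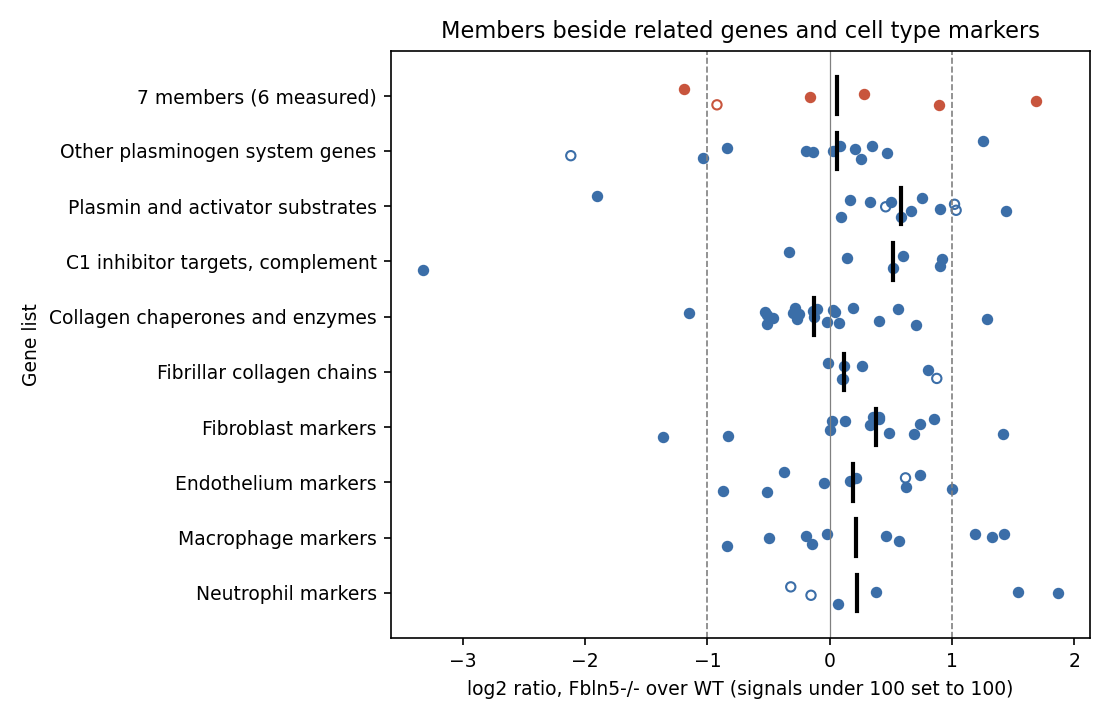
Log2 ratio between the *Fbln5-/-* and the WT array, 1 array each, for the members (red) and for genes in related lists (blue), with signals under 100 set to 100. A filled circle is a gene with both signals at the limit or above it, an open circle is a bound where 1 signal was below it, a black bar is the median of a list, and the dashed lines are drawn at 2-fold. The members spread from −1.19 to 1.69 around a median of 0.06, and each open circle could lie on only 1 side of 0.

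Other cell type lists bear on the stromal members. Of 14 fibroblast markers measured, 12 had log2 ratios above 0, with a median of 0.38. The summed signal over the 15 with a probe set was 68923 for WT and 83403 for *Fbln5-/-*. Of all 11934 genes measured, 7592 had a log2 ratio above 0, and the median was 0.16. *Dpt*, dermatopontin, was 2.67-fold higher and *Fbln1*, fibulin-1, was 2.57-fold lower, with *Pi16* at 0.86 and *Twist2* at −0.83. Smooth muscle markers had a median of 0.11 (10 of 10 measured, 1 higher) and markers of squamous epithelium a median of 0.19 (14 measured, 1 higher), the latter with *Krt5*, a basal keratin of this tissue, at 16102 and 16059. All 5 adipocyte markers measured were at least 2-fold higher, 2 of which passed the limit only through the *Fbln5-/-* array, and the sum over 8 was 2855 for WT and 12359 for *Fbln5-/-*. Of 10 liver markers 9 were under 100 on both arrays, *Alb* and *Ttr* among them, and *Hp*, haptoglobin, was the 1 measured (log2 ratio 1.55). The part of fibroblast or fat content in the readings of *Serping1*, *Serpinf1* and *Serpinh1* was not tested.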

How the data were processed

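RNA of whole vagina was measured on 1 array for each of 2 genotypes. The authors deposited signal intensities of 45101 probe sets, which the submitters' processing notes credit to MAS5, in a version that is not stated. The mean, with the lowest and highest 2% left out, was 500.0 on both arrays. Each array was then multiplied by a factor (0.972 for WT, 1.03 for *Fbln5-/-*) that gave both the same median, and a signal of 0 was set to 0.1. Of the probe sets, 21508 had at least 100 on at least 1 array (64 control probe sets left out). Deposited intensities under 100 made up 54.8% of the WT array and 55.9% of the *Fbln5-/-* array, and precision is limited by there being 1 array each. Detection calls were not used here.

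Genes were named through the platform annotation (34958 probe sets with 1 symbol, 932 with several, 9211 with none), and 34754 identifiers matched the GRCm38.p6 gene table, used for names only because no genome build is named for the arrays. The members and lists were chosen with earlier results of these data known. Named were all members, all measured genes of the other plasminogen genes, and up to 4 genes per other list with the largest log2 ratios at 100 or more on both arrays. Genes given as further examples were chosen after their values were seen. They were *Igf2r* at a second probe set, *C1qb*, *C1qc*, *C1ra*, *Krt5*, *Hp*, *Ltf*, *Csf3r*, *P4ha1*, *Bmp1*, *Colgalt1*, *P3h1*, *Plod2*, further probe sets and genes under 100 on an array. The steps were tested on simulated data. Alternatives were 4 other scalings, signals under 100 set to 100, an offset of 32, counting at 3-fold, stricter and looser limits, and other ways to choose the probe set of a gene. Computations used Python 3.11.15, numpy 2.4.6 and pandas 2.3.3, and plots matplotlib 3.10.9. Other assays of the study were not analysed here. One listed gene is not reported here.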

Additional observations from a re-analysis of the deposited data

How the results depend on the processing

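With 1 array per genotype no array could be left out. No paired analysis was possible because each genotype has 1 array. Values were called alike where they moved by less than the pooled SD of probe sets of a gene (0.52 on the log2 scale) and stayed on the same side of 2-fold, and counts where they were within 1.5 times of each other, so that 2 and 3 count as alike, as do the 2 and 4 substrates higher without the suffixed probe sets and without a filter against 3. Of the values and counts of the members and related lists under the alternatives, 234 were alike and 34 were not. Under the 4 other scalings *Plat* stayed at least 2-fold higher and *Plaur* at least 2-fold lower. Over the alternatives that gave a value (*Plaur* and *Serpinh1* have none without the suffixed probe sets, and a second probe set none under other rules for the probe set) the log2 ratio ran from 1.56 to 1.69 for *Plat*, from −1.29 to −1.07 for *Plaur*, from −1.23 to −0.90 for *Plau*, from 0.79 to 0.90 for *Serping1*, from −0.36 to −0.16 for *Serpinh1* and from −2.70 to −2.42 for the second *Serpinf1* probe set. *Plau* dropped under 2-fold with signals under 100 set to 100 (−0.92) and with 32 added (−0.90), which left 1 member lower, as did a limit of 200, a limit of 100 on both arrays and leaving out _x_at, _s_at and _a_at probe sets. The last of these also leaves *Plaur* and *Serpinh1* without a probe set and gave a member median of 0.59 over 4 genes. With the mean over the probe sets past the limit of 100, *Serpinf1* turned from 0.28 to −1.16 and the member median to −0.74. There were then 3 members lower, and 3 of the other plasminogen genes lower. At 3-fold, 0 members were lower, and the other plasminogen genes had 0 higher and 1 lower, the substrates 0 higher, the collagen enzymes 0 higher and 0 lower, and the fibrillar collagens 0 higher. For the other plasminogen genes there were 2 higher without the suffixed probe sets, 1 lower at 100 or more on both arrays, and 3 higher and 4 lower without a filter. For the substrates there were 2 lower with the mean, 1 higher at 100 or more on both arrays and 3 lower without a filter. For the complement genes there were 2 higher without the suffixed probe sets and 2 without a filter. For the collagen enzymes there were 3 lower with the mean and 0 higher without the suffixed probe sets. For the fibrillar collagens there were 0 higher with the floor of 100 and with either stricter filter, 2 higher with the mean, 2 higher without the suffixed probe sets, and 1 lower without a filter. The liver markers turned from a median of 1.55 to −0.35 without a filter, over 10 genes in place of 1. Beyond the changes that follow from fewer or more genes and probe sets, the cause was not tested.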
